A study of Rattus with 8 samples.

Results

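The miR-15, miR-16 and miR-195 family was examined in the rat hippocampus after deep hypothermic circulatory arrest (DHCA) under cardiopulmonary bypass (CPB). The members were all mature miRNAs in the deposited count table that come from the hairpins miR-15b, miR-16, miR-195, miR-497, miR-322 and miR-503, from either arm, each name used once. This gave 11 of the 615 mature miRNAs listed, comprising 6 from the 5p arm and 5 from the 3p arm. Of the 11, 10 passed the filter on low counts and were tested, and 8 were listed in all 8 libraries.

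Small RNA was sequenced from 4 libraries of the CPB/DHCA group and 4 of the sham-operated control group, all from the hippocampus of 9-week-old male Sprague-Dawley rats. CPB/DHCA rats were put on bypass at normal temperature, cooled over 30 min, held without circulation for 30 min, rewarmed and weaned from bypass. Control rats had the same surgery, with intubation and cannulation, but neither CPB nor DHCA, and all rats received the same analgesic. Tissue was taken at 24 h, so the CPB/DHCA libraries come from animals that survived the procedure to that time.

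Mature miRNAs guide Argonaute proteins to messenger RNAs that pair with their seed, the bases near the 5′ end, and members of a family share that seed and so many targets. The miR-15 and miR-16 family is known for restraining the cell cycle and cell survival through messenger RNAs such as Ccnd1, Ccne1, Chek1 and Bcl2. In mouse, miR-195 takes part in the withdrawal of heart muscle cells from the cell cycle after birth, miR-322 and miR-503 do so in differentiating myoblasts, and miR-497 was described as induced in brain after focal ischaemia. miR-16 is also abundant in erythrocytes.

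The 5p sequences of the family are shown because the shared seed defines it. In the deposited table the first 5 have the same bases 2 to 8, in capitals here, while miR-503-5p shares bases 2 to 7 and differs at base 8.
rno-miR-16-5p: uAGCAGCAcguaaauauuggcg
rno-miR-195-5p: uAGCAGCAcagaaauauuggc
rno-miR-15b-5p: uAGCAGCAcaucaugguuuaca
rno-miR-497-5p: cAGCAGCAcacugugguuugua
rno-miR-322-5p: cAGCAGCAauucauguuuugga
rno-miR-503-5p: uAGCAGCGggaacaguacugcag

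Outside the seed, miR-16-5p and miR-195-5p were the most alike pair, with 11 identical bases of 13 compared after base 8. miR-16-5p and its neighbour miR-15b-5p had 6 of 14, and miR-195-5p and its neighbour miR-497-5p had 5 of 13. Bases 2 to 8 were those of miR-16-5p in 6 of the 615 listed sequences (0.976%), the sixth being miR-15a-5p. That miRNA was not one of the chosen hairpins and had 2 tags in 1 library, CPB/DHCA 3.

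The same 7 letters open miR-103-3p and miR-107-3p, shifted by 1 base, and these are shown because they hold the letters of the seed at another offset. In these sequences the capitals are bases 1 to 7.
rno-miR-103-3p: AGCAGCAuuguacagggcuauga
rno-miR-107-3p: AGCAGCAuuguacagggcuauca

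The reverse complement of the seed, UGCUGCU, stood near the 3′ end of 3 of the 5 family members from the 3p arm, which are shown for that reason with the motif in capitals. It was present in 6 of the 615 listed sequences (0.976%), read on the strand listed. miR-322-3p and miR-503-3p did not contain these letters.
rno-miR-15b-3p: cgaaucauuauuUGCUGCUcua
rno-miR-16-3p: accaauauuauugUGCUGCUu
rno-miR-195-3p: ccaauauuggcugUGCUGCUcca

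The genes Mir15b, Mir16, Mir195, Mir497, Mir322 and Mir503 form 3 pairs of neighbours in the RefSeq annotation of GRCr8, an assembly other than the rn6 build of the deposited data. Mir15b and Mir16 are each other's nearest miRNA genes on chromosome 2, within the span of Smc4, which encodes a condensin subunit. Mir195 and Mir497 are neighbours on chromosome 10, and no other annotated gene spans them. Mir322 and Mir503 are neighbours on chromosome X, within the span of the long noncoding RNA LOC102550366. The deposited table lists miR-322 and miR-503 under 2 precursors each, with the same counts. In mouse and human, miR-16 is also made from another hairpin beside miR-15a, and a count of the mature miRNA does not tell several sources apart.

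Listed counts summed to between 508574 and 672378 in the CPB/DHCA libraries and to between 620133 and 772840 in the control libraries. Levels below are CPM, counts scaled to a common library total with TMM factors, and before these factors 1 tag (1 counted read) was worth 1.29 to 1.97 CPM. Since no count of 1 is listed, empty cells may hide a single tag, and they were taken as 0. miRNAs of neurons (miR-9a-5p, miR-128-3p, miR-124-3p and miR-138-5p) were present in every library, with summed levels from 182793 to 369626 CPM in the CPB/DHCA group and from 232385 to 335183 CPM in the control group. Most of this sum was miR-9a-5p, with means of 207395 CPM in the CPB/DHCA group and 209597 CPM in the control group. Means of miR-124-3p were 4939 and 6635 CPM.

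The family was a minor part of hippocampal miRNA. Its 11 members took 0.0514 ± 0.0146% of the counts in the CPB/DHCA group and 0.0484 ± 0.00523% in the control group (SD, n = 4 each). The share ranged from 0.0374% to 0.0653% in the CPB/DHCA group and from 0.042% to 0.0543% in the control group, so the control libraries lay inside the range of the CPB/DHCA libraries. miR-16-5p alone supplied 60.5% of the family tags in the CPB/DHCA group and 58.6% in the control group.

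The listed sequences of the members are 20 to 23 bases long, and levels below are tags per library with no correction for length. Since ligation of adapters differs between sequences, the order is one of tags and not of molar amounts. miR-16-5p was the most abundant member in all 8 libraries, with 295 ± 60.3 CPM (SD, n = 8), and ranked 136 among the 615 miRNAs by mean level. It exceeded the next member, miR-322-3p with 58.5 ± 8.61 CPM (SD, n = 8), by 3.47- to 6.48-fold within a library. This was the only step in the order at which the ranges over libraries did not overlap. Below it came miR-497-5p with 45.0 ± 11.4 CPM (SD, n = 8), miR-15b-5p with 29.0 ± 13.6 CPM and miR-322-5p with 26.4 ± 10.9 CPM, whose order changed from library to library. miR-195-5p, miR-503-5p, miR-195-3p, miR-503-3p and miR-15b-3p averaged 3.17 to 13.03 CPM, and miR-16-3p was listed in 1 library only, control 2, with 2 tags.

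**Figure D1:**
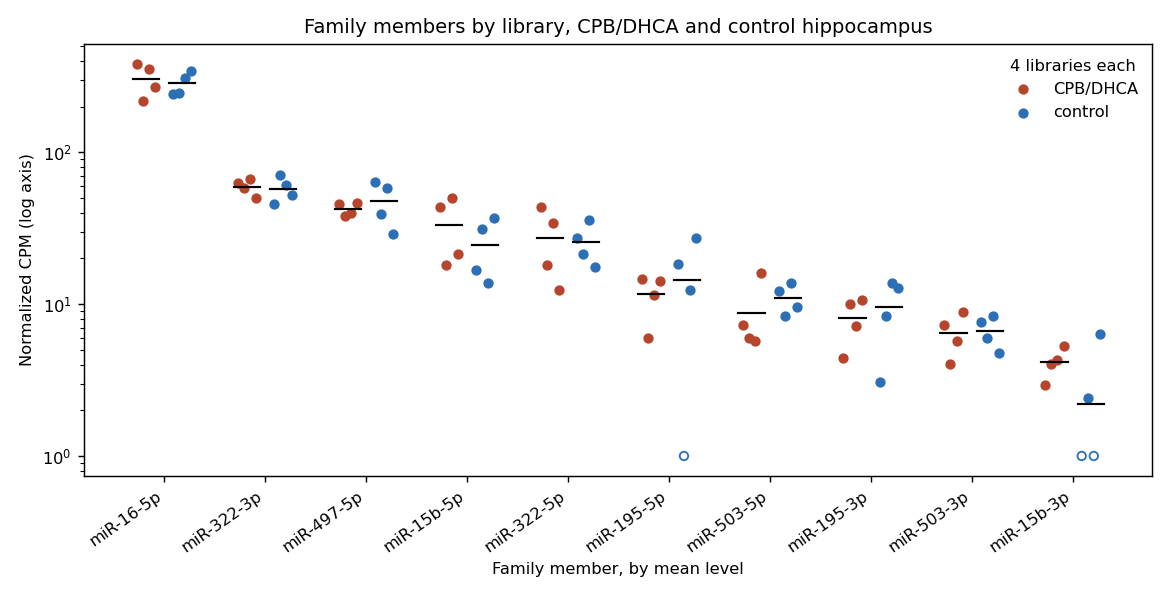
Normalized CPM (log axis) of the 10 members tested, with 1 point per library, CPB/DHCA left and control right of each name, a bar for the group mean and open circles at 1 CPM for empty cells. miR-16-5p lies between 218 and 384 CPM in all 8 libraries and the other members at 70.6 CPM or below, with the groups overlapping for every member.

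Of the offset-seed miRNAs, miR-103-3p was far more abundant than the family. It ranked 17 by mean level, with 8121 ± 598 CPM in the CPB/DHCA group and 6800 ± 659 CPM in the control group (SD, n = 4 each). miR-107-3p ranked 105, with 482.64 to 698.91 CPM in the CPB/DHCA group and 381.77 to 592.02 CPM in the control group, nearer to miR-16-5p. Together, miR-103-3p and miR-107-3p exceeded the sum of the miRNAs with the miR-16-5p seed by 14.3- to 29.8-fold within a library.

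The comparison of CPB/DHCA with control addresses whether the family differed 24 h after circulatory arrest, and no member passed the thresholds of the study. Of 10 members tested with the quasi-likelihood test of edgeR, 0 had a fold change of at least 1.5 with an unadjusted p of at most 0.05, against 34 of all the 467 miRNAs tested (7.28%). At an adjusted p under 0.05 there were 0 members and 1 of all miRNAs (0.214%). None of the 10 had an unadjusted p under 0.05 with edgeR, DESeq2 or limma. Groups whose CPM did not overlap were seen for 0 members and for 22 of all miRNAs (4.71%). The log2 fold change was positive for 5 members and negative for 5, with a median of 0.0060, beside -0.05 over all miRNAs tested.

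**Figure D2:**
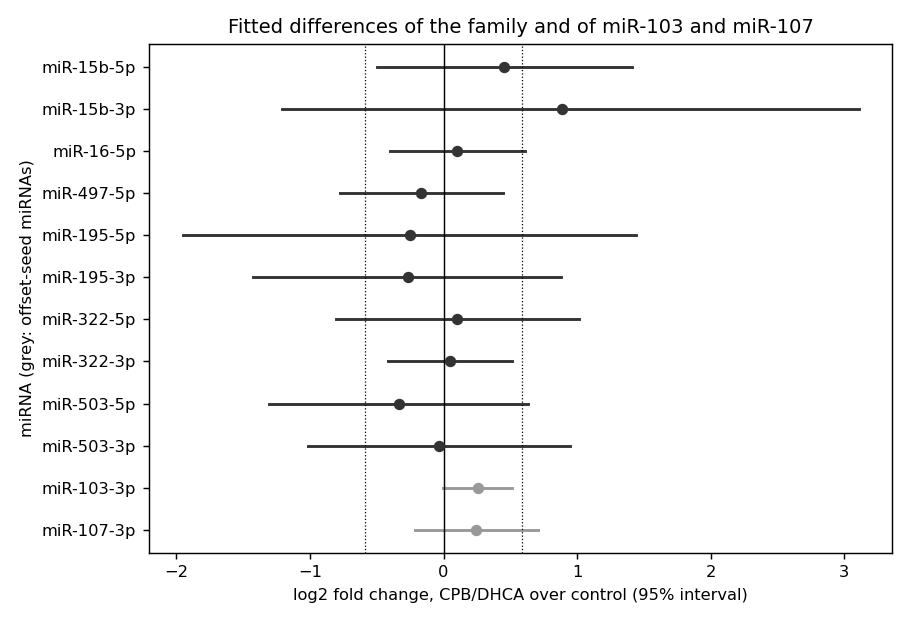
Fitted log2 fold change of CPB/DHCA over control for 10 family members (black) and the offset-seed miR-103-3p and miR-107-3p (grey), with lines for 95% intervals and dotted lines at a fold change of 1.5. Every interval crosses 0, and those of miR-16-5p, miR-322-3p, miR-497-5p, miR-103-3p and miR-107-3p are the narrowest.

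In the cluster of miR-15b and miR-16, miR-16-5p had 384, 218, 353 and 268 CPM in CPB/DHCA libraries 1 to 4, against 243, 245, 309 and 342 CPM in control libraries 1 to 4. The CPB/DHCA libraries held both the highest and the lowest of the 8 values, and the groups overlapped. Means were 306 ± 76.0 CPM in the CPB/DHCA group and 285 ± 49.0 CPM in the control group (SD, n = 4 each). The log2 fold change was 0.10 (standard error, SE, 0.22, 95% interval -0.40 to 0.61, adjusted p = 0.99 with edgeR), and the exact two-sided permutation p was 0.69. The interval reaches just past a 1.5-fold rise and does not extend to a 1.5-fold fall.

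miR-15b-5p, the neighbour of miR-16 in the same host gene, had 43.9, 18.0, 50.0 and 21.3 CPM in CPB/DHCA libraries 1 to 4, against 16.8, 31.1, 13.9 and 36.7 CPM in control libraries 1 to 4. The highest value was 2.77 times the lowest within the CPB/DHCA group and 2.65 times within the control group. Its log2 fold change was 0.46 (SE 0.43, 95% interval -0.50 to 1.41, adjusted p = 0.93 with edgeR), so the difference was smaller than the spread between libraries. Its 3p arm, miR-15b-3p, had 2, 2, 3 and 3 tags in the CPB/DHCA libraries and 2 and 4 tags in control libraries 2 and 4, with empty cells in control libraries 1 and 3. The log2 fold change of 0.89 had a 95% interval of -1.21 to 3.11, which covers both a fall and a rise by more than 2-fold. Its value was 1.99 without control 4 (unadjusted p = 0.065 with edgeR), 0.53 without control 3, and 0.35 and 0.037 with limma on log2(TPM + 1) and log2(TPM + 10).

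In the cluster of miR-195 and miR-497, both 5p members had negative log2 fold changes and neither passed. miR-497-5p had 45.4, 38.0, 40.0 and 46.2 CPM in CPB/DHCA libraries 1 to 4, against 64.1, 39.5, 58.2 and 28.8 CPM in control libraries 1 to 4. The CPB/DHCA libraries lay close together, inside the range of the control libraries, and the log2 fold change was -0.17 (SE 0.27, 95% interval -0.78 to 0.44, adjusted p = 0.99 with edgeR). miR-195-5p had 10, 3, 8 and 8 tags in CPB/DHCA libraries 1 to 4, against 12, 9 and 17 tags in control libraries 1, 3 and 4 and an empty cell in control library 2. Control library 2 held 7 tags of the other arm, miR-195-3p, and had the largest total count of the 8 libraries. The log2 fold change of miR-195-5p was -0.25 (95% interval -1.95 to 1.44) and its sign turned to 0.080 with limma on log2(TPM + 1), while miR-195-3p had -0.27 (95% interval -1.43 to 0.88).

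In the cluster of miR-322 and miR-503, miR-322-3p had the smallest within-group SD of the family on the log2 scale. It had 63.0, 58.1, 67.1 and 49.8 CPM in CPB/DHCA libraries 1 to 4, against 45.8, 70.6, 61.0 and 52.7 CPM in control libraries 1 to 4, with a log2 fold change of 0.05 (SE 0.21, 95% interval -0.42 to 0.51). miR-322-5p had 43.9, 18.0, 34.3 and 12.4 CPM in CPB/DHCA libraries 1 to 4, against 27.5, 21.5, 36.0 and 17.6 CPM in control libraries 1 to 4. Its values spread 3.53-fold within the CPB/DHCA group and 2.05-fold within the control group, and its log2 fold change was 0.10 (95% interval -0.81 to 1.02). miR-503-5p and miR-503-3p had 2 to 10 tags per library, with log2 fold changes of -0.33 and -0.04, of which the second turned to 0.012 with DESeq2 size factors. That of miR-503-5p was -0.74 without CPB/DHCA 4 and -0.16 without control 3 or without CPB/DHCA 3.

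Within the CPB/DHCA group, miR-16-5p, miR-15b-5p, miR-322-5p and miR-322-3p were all highest in libraries 1 and 3. miR-497-5p, miR-503-5p and miR-503-3p were highest in library 4, with library 1 next. miR-195-5p was highest in library 1, with library 4 next, while miR-15b-3p and miR-195-3p were highest in library 4 and lowest in library 1. In the control group, miR-16-5p and miR-15b-5p were highest in library 4, miR-322-5p in library 3 and miR-322-3p in library 2, so the order was not shared there. The within-group SD of miR-16-5p was 0.31 on the log2 scale, against 0.11 from counting error alone, and that of miR-15b-5p was 0.63 against 0.37. For miR-322-3p it was 0.22, close to the 0.24 of counting error. The levels of other cell types in the same libraries were not ordered in 1 way: the summed neuron miRNAs had 284913, 311156, 182793 and 369626 CPM in CPB/DHCA libraries 1 to 4, and the summed erythrocyte miRNAs 151, 104, 153 and 190 CPM. On average, miR-9a-5p supplied most of the neuron sum and miR-486 most of the erythrocyte sum. The part of these cell types in the spread of the family was not tested.

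**Figure D3:**
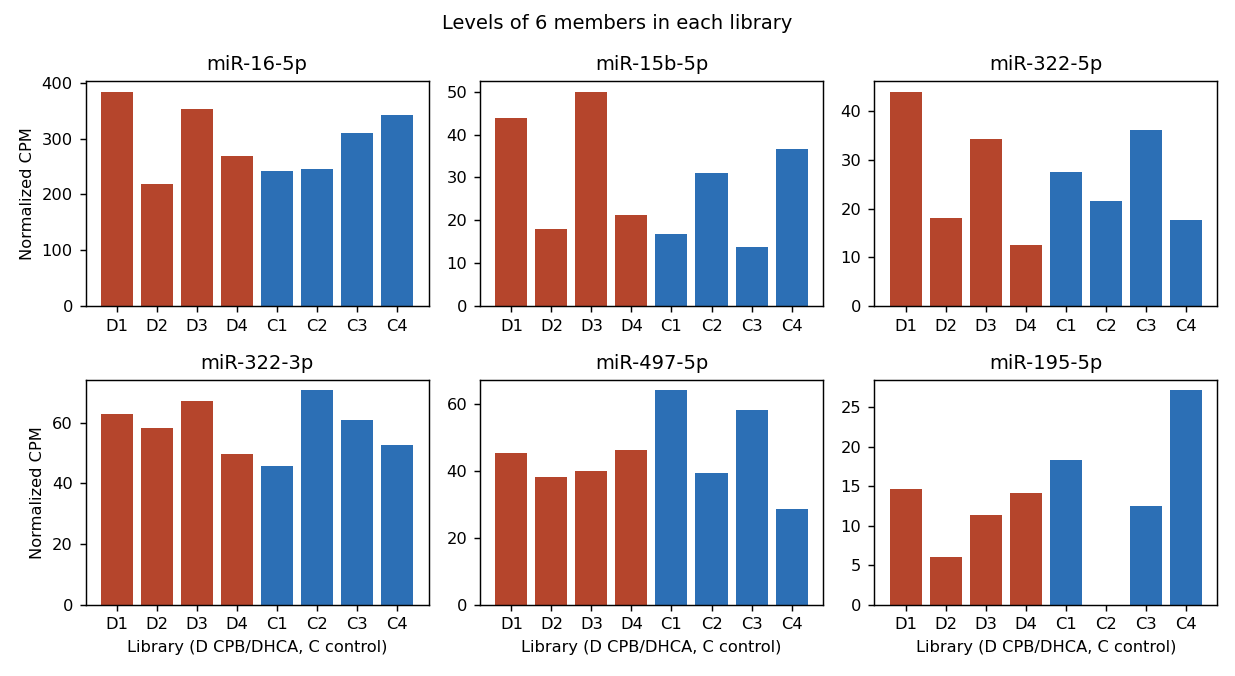
Normalized CPM of 6 members in each library, with CPB/DHCA libraries (D1 to D4) left and control libraries (C1 to C4) right, on axes that start at 0. miR-16-5p, miR-15b-5p and miR-322-5p are highest of the CPB/DHCA group in D1 and D3, miR-497-5p differs little among the CPB/DHCA libraries, and miR-195-5p is not listed in C2. Of the control group, miR-16-5p and miR-15b-5p are highest in C4 and miR-322-5p in C3.

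Arm use differed between the hairpins, and the intervals of the groups overlapped for each. The tags listed for miR-16 were almost all of the 5p arm, with 1570 tags against 2 of miR-16-3p over the 8 libraries. If the 5p tags come from several hairpins, as in mouse and human, this is not the arm share of a single hairpin. The 3p arm of miR-15b made up 10.4% of the tags of both arms in the CPB/DHCA group (95% Wilson interval 5.76% to 18.1%, counting error only) and 7.89% in the control group (3.67% to 16.2%). For miR-322 the 3p arm was the major one in 8 of 8 libraries, with 67.7% of the tags in the CPB/DHCA group (61.3% to 73.6%) and 69.5% in the control group (63.3% to 74.9%). miR-195 and miR-503 were less one-sided, with 39.6% and 43.2% from the 3p arm in the CPB/DHCA group and 41.5% and 38.0% in the control group. Empty cells can hide 1 tag each, which affects miR-15b-3p and miR-16-3p most.

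**Figure D4:**
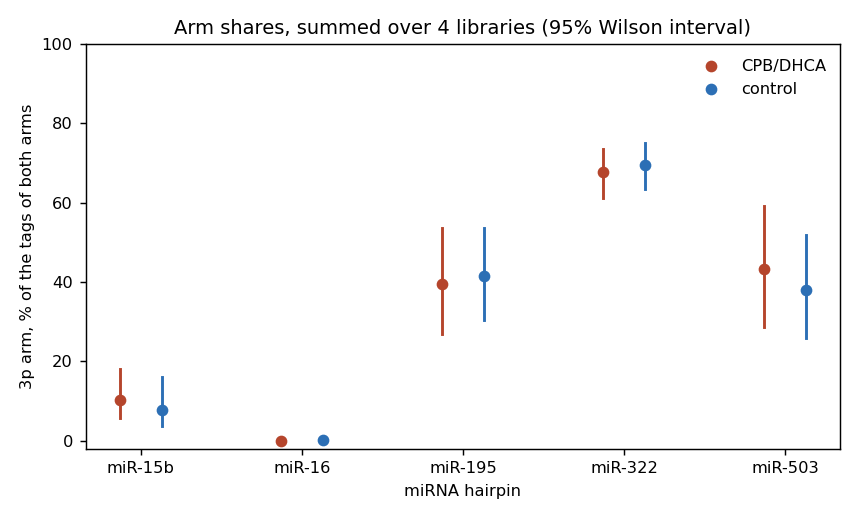
Share of the 3p arm in the tags of both arms for 5 hairpins, summed over the 4 libraries of each group (CPB/DHCA left, control right), with 95% Wilson intervals that cover counting error only. The share is near 0% for miR-16 and above 60% for miR-322 in both groups, and the intervals of the groups overlap for every hairpin. For miR-16 only miR-16-3p counts as the 3p arm, while the 5p tags may come from several hairpins.

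Ratios between members within a library do not depend on the scaling between libraries, and 4 were compared. The ratio of miR-16-5p to miR-15b-5p was 8.73, 12.1, 7.06 and 12.6 in CPB/DHCA libraries 1 to 4, against 14.5, 7.88, 22.3 and 9.30 in control libraries 1 to 4, a log2 difference of -0.33 (SE 0.38, exact permutation p = 0.40, adjusted p = 0.80 over the 4 ratios). Without control 3 this difference was -0.055, and without control 2 it was -0.54. The ratio of miR-15b-5p to miR-15b-3p had a log2 difference of -0.998 (SE 0.68, exact permutation p = 0.20, adjusted p = 0.80). It rested in part on the empty cells of miR-15b-3p in control libraries 1 and 3 and was -0.097 with TPM and -0.63 with 1 tag added. The ratios of miR-195-5p to miR-497-5p and of miR-16-5p to miR-195-5p had log2 differences of 0.66 and -0.47 (exact permutation p = 0.74 and 0.97, adjusted p = 0.97 for both). The last pair of differences rested on the empty cell of control library 2 and turned to -0.53 and 0.71 without it.

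Neither miR-16-5p nor miR-195-5p had its own neighbour among the miRNAs most alike to it. Likeness was measured over the 8 libraries as the root mean square difference of log2 CPM, each centred on its own mean. The miRNAs most like miR-16-5p were miR-1839-5p (0.16), miR-879-5p (0.19) and miR-20a-5p (0.20), beside a median of 0.48 over all miRNAs tested, while miR-15b-5p ranked 207 of 466 and miR-322-3p ranked 44. The miRNAs most like miR-195-5p were a predicted miRNA named for chromosome 17 (0.56), miR-673-3p (0.57) and miR-493-3p (0.61), beside a median of 1.02, and miR-497-5p ranked 166. For miR-195-5p the nearest family member was miR-16-5p, at rank 36. These values share depth and scaling, and those of miR-195-5p include its empty cell in control library 2. The measure also grows with counting error, which was 0.37 for miR-15b-5p, whose difference from miR-16-5p was 0.44. The difference of 0.84 between miR-16-5p and miR-195-5p ranked 418 from the first and 36 from the second. A distant rank therefore does not show that neighbours vary apart.

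Beside the family, the fitted log2 fold change was 0.26 for miR-103-3p, whose SE was 0.12 (unadjusted p = 0.051, adjusted p = 0.56 with edgeR), and 0.24 for miR-107-3p (adjusted p = 0.89 with edgeR). Neither passed. Of 10 miRNAs of the miR-17 and miR-92 clusters and their paralogs, most of which promote the cell cycle, 8 were tested. One of them, miR-19a-3p, passed upwards, with 39 tags in the CPB/DHCA group and 21 in the control group, a log2 fold change of 1.05 whose SE was 0.42 (adjusted p = 0.53 with edgeR), and none passed downwards. Over all miRNAs tested, 18 of 467 passed upwards (3.85%). The median over these 8 was 0.18.

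Since miR-15b and miR-16 are also abundant in blood cells, the blood markers were read in the same libraries. Of 4 erythrocyte miRNAs, 3 passed upwards (adjusted p = 0.077, 0.53 and 0.53 with edgeR): miR-144-3p with 83 tags in the CPB/DHCA group and 8 in the control group, miR-144-5p with 18 and 2, and miR-451-5p with 16 and 3. miR-144-3p and miR-144-5p are arms of the same hairpin, so these calls are not independent. The fourth, miR-486, did not pass (log2 fold change -0.13). Over all miRNAs tested, 3.85% passed upwards and 7.28% in either direction. The summed erythrocyte level was 104 to 190 CPM in the CPB/DHCA group and 96.9 to 136 CPM in the control group. Most of it came from miR-486, with means of 103 CPM in the CPB/DHCA group and 113 CPM in the control group. The defining miR-451-5p was not listed in control libraries 2, 3 and 4. Of 4 leukocyte miRNAs none passed, with summed levels from 524 to 622 CPM in the CPB/DHCA group and from 483 to 706 CPM in the control group. Most of that sum came from miR-150-5p, with means of 508 CPM in the CPB/DHCA group and 512 CPM in the control group. miR-223-3p had only 5 tags in the CPB/DHCA group and 7 in the control group, and miR-142-3p 20 and 27. The part of blood in the level of miR-16-5p was not tested. In bulk tissue a change in the number of cells of a type and a change in RNA per cell cannot be told apart.

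Vascular markers were read likewise, as miR-195 and miR-497 are expressed in muscle and vessel walls. The endothelial miR-126a-3p and miR-126a-5p had log2 fold changes of 0.23 and -0.18, and neither passed. Of 5 smooth muscle and fibroblast miRNAs tested, 1 was called lower, beside 16 of 467 over all miRNAs tested (3.43%). This was miR-199a-5p, at -1.38 on the log2 scale with an SE of 0.53 (adjusted p = 0.53 with edgeR). Of the 5, 4 had negative log2 fold changes and 1 a positive one, with a median of -0.52. Over all miRNAs tested, 278 of 467 were negative. The summed level of the 6 on that list ranged from 2413 to 3893 CPM in the CPB/DHCA group and from 2422 to 7469 CPM in the control group, with the highest value in control library 2, where miR-195-5p was not listed. The part of these cells in the levels of miR-195 and miR-497 was not tested.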

How the data were processed

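Members and lists were chosen with earlier results of these data known. The authors trimmed reads with cutadapt 1.9.3 (at least 15 nt kept), aligned them with Novoalign 3.02.12, allowing up to 1 mismatch, to miRBase precursors and to precursors predicted on the pooled reads with miRDeep2, and deposited raw tag counts per mature miRNA (rn6). The deposited normalized score is their TPM, tags scaled to a common total of aligned tags, rounded to whole numbers and used in alternatives only. Its listed values, each name used once, sum to 25.28% to 26.83% of that total in every library. How much of the rest lies in repeated lines of a name was not tested. The sum of the listed counts, each name used once, served as library size (family shares of aligned tags were an alternative). Names filling several lines with equal counts were used once. Adapter ligation differs between sequences, so tags of different miRNAs are not molar amounts.

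Counts were fitted in R 4.3.3 with edgeR 4.0.16 (trimmed means of M values, TMM, glmQLFit and glmQLFTest, group only) over the 467 miRNAs with at least 10 counts and listed in at least 4 libraries, and p was adjusted by Benjamini and Hochberg over all 467. The thresholds are those of the study, which names no test for them. Fold changes carry edgeR's default prior count, intervals are from the unshrunk fit, and log2 CPM use a prior count of 2. Exact two-sided permutation tests over the 70 assignments of libraries cannot go below p = 0.029. Ratios add 0.5 tags to each count. The procedure was tested on simulated counts. Alternatives used DESeq2 1.42.0, limma 3.58.1 and the settings named in the closing section, and the rest Python 3.11.15. Libraries were taken as 1 rat each, which the labels do not state, so p measures the spread between these libraries. Named miRNAs are all members, all sequences with their seed, the offset-seed pair, the list markers that stand beside a result and the 3 most alike to miR-16-5p and miR-195-5p.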

Additional observations from a re-analysis of the deposited data

Results flagged for a closer look

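Of 32 sets of 4 libraries (each member, ratio and the family share in each group), 2 held a library far from the others, beside about 1 in 20 by chance. miR-503-5p had 16.0 CPM in CPB/DHCA library 4, from 9 tags, and the other libraries of that group had 3 to 5 tags. miR-16-3p had 2.39 CPM in control library 2, from 2 tags, and was empty in the other control libraries. Any count that stands alone among empty cells is flagged by this rule, so this flag says nothing more about that library.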

How the results depend on the processing

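None of the members tested passed the thresholds in the 18 alternatives. This covers 10 members in each, except 5 with at least 10 counts in 4 libraries, and leaves out miR-16-3p. The smallest unadjusted p was 0.065, for miR-15b-3p without control 4. Of all miRNAs, 12 passed with limma on log2(TPM + 10) and 19 with miRBase miRNAs only, against 34, and 17 to 40 with 1 library left out (20 without control 1, 20 without control 2 and 17 without control 3). At an adjusted p under 0.05 there were 2 with DESeq2, with limma at either pseudocount, with at least 10 counts in 4 libraries or with 1 tag in every empty cell, 0 with miRBase miRNAs only (edgeR, 19 past the other thresholds) and 1 with any library left out. The cause of these moves was not tested, other than that fewer miRNAs are tested under the stricter filter and with miRBase miRNAs only.

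Signs turned for several members and for the ratios that hold miR-195-5p. miR-503-3p had 0.012 with DESeq2 size factors, 0.011 with DESeq2, 0.15 and 0.031 with limma on log2(TPM + 1) and log2(TPM + 10), and 0.0068 with miRBase miRNAs only, and miR-195-5p had 0.080 with limma on log2(TPM + 1). With 1 library left out, log2 fold changes ranged from -0.52 to 0.0054 for miR-195-3p, -0.66 to 0.24 for miR-195-5p, -0.019 to 0.19 for miR-322-3p, -0.18 to 0.37 for miR-322-5p, -0.34 to 0.034 for miR-497-5p, -0.17 to 0.16 for miR-503-3p, -0.74 to -0.16 for miR-503-5p and 0.53 to 1.99 for miR-15b-3p. The log2 differences of the ratios ranged from -0.53 to 1.47 for miR-195-5p to miR-497-5p, -0.98 to 0.71 for miR-16-5p to miR-195-5p, -0.54 to -0.055 for miR-16-5p to miR-15b-5p and -1.43 to -0.72 for miR-15b-5p to miR-15b-3p. The cause was not tested. miR-16-5p (0.018 to 0.28) and miR-15b-5p (0.20 to 0.70) stayed positive, and the log2 ratio of the family share, 0.087, ranged from -0.050 without CPB/DHCA 3 to 0.21 without CPB/DHCA 2, and was 0.13 on aligned tags.

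Deviations of log2 CPM from the group means correlated at 0.205, -0.147, -0.073 and 0.588 between same-numbered libraries. These values had no common sign, and the numbers were not taken as pairs. Libraries of unlike number were not compared. With the replicate number as a block, 31 miRNAs passed, no member among them, and miR-16-5p had 0.085 and miR-15b-5p 0.43. Depth limits the rare members: at 1.29 to 1.97 CPM per tag, miR-15b-3p, miR-16-3p, miR-195-3p, miR-503-5p and miR-503-3p rest on at most 10 tags per library, and a change in them was not detectable here unless large.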

Other observations

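A predicted miRNA named for chromosome 15 of rn6 carries the same reverse complement of the seed, in capitals, as 3 of the 5 members from the 3p arm, and was chosen after its values were seen.
predicted miRNA named for chromosome 15: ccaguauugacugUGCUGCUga
It had 18 identical bases of 22 compared with miR-195-3p and 12 of 21 with miR-16-3p, from the first base and without gaps. Whether it comes from the miR-16 hairpin beside miR-15a was not tested, and these identities do not settle its origin. Its tags numbered 18, 8, 28 and 10 in CPB/DHCA libraries 1 to 4, against 12, 6, 18 and 14 in control libraries 1 to 4, so it was more abundant than miR-16-3p, miR-195-3p and miR-15b-3p. As for miR-16-5p and miR-15b-5p, the CPB/DHCA libraries 1 and 3 were the highest of their group. In the control group the order differed: the predicted miRNA was highest in library 3 and lowest in library 2. There miR-15b-5p was lowest in library 3, and both miR-15b-5p and miR-16-5p were highest in library 4. The log2 fold change of the predicted miRNA was 0.49 (standard error 0.43, 95% interval -0.46 to 1.46, adjusted p = 0.91 with edgeR), and the groups overlapped.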
